A study of Homo sapiens with 3 samples.

Results

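The genes described here are 58 members of the actin cytoskeleton and its transcriptional control, chosen by gene name: the actins, the proteins that cross-link, cut, cap or move actin filaments, the coronins, ROCK1 and ROCK2, the formins, and SRF with its coactivators. All 58 names were found once each among the 50868 genes of the deposited table. RNA was sequenced from HGC-27, a human cell line grown from an undifferentiated stomach cancer, 48 h after siRNA transfection at passage 6. The first library comes from cells given siRNA to IRF3, which switches on interferon genes, the next from cells given siRNA to YAP, the coactivator that the Hippo kinases restrain, and the last from cells given a control siRNA. With 1 library in each group there is no replicate check, and no difference is tested. Both knockdowns are set against the same control library, so a deviation of that library enters both comparisons.

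Actin filaments give cells their shape and the force to move. Filaments grow from profilin-bound monomers at formins or branch from the Arp2/3 complex, are bundled by actinins and filamins, are pulled by non-muscle myosin II under the control of the kinases ROCK1 and ROCK2, and are taken apart by cofilins with the help of coronins. Free actin monomers hold the coactivators MKL1 and MKL2 (MRTF-A and MRTF-B) out of the nucleus, and when monomers are used up these join the transcription factor SRF, which binds a motif called the CArG box near many genes of the actin cytoskeleton. YAP is itself known to respond to actin tension, and many YAP targets are also SRF targets.

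The gene counts summed to 14941556 in the IRF3 siRNA library, 14385959 in the YAP siRNA library and 13949401 in the control library. YAP1 had 561, 337 and 861 counts in that order, and IRF3 had 597, 764 and 681. The count ratio of IRF3 to control in the IRF3 siRNA library was 0.818 (counting interval 0.732 to 0.915), a weak check of that label, on a gene that shares exon sequence with BCL2L12. The epithelial markers EPCAM, CDH1, KRT8, KRT18 and KRT19 were all under 1 FPKM in each library, while of 3 mesenchymal markers VIM stood at 451, 469 and 511 FPKM, FN1 at 6.16, 7.14 and 9.33 FPKM, and CDH2 had only 7, 12 and 5 counts. The leukocyte marker PTPRC had 3, 3 and 1 counts, and the muscle factor MYOD1 had none.

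A ratio below is the log2 of FPKM plus 1 in the first library over FPKM plus 1 in the second, a scale that understates the change of low genes. FPKM divides a count by the length of its gene and the total of its library. A gene was called higher or lower at 2-fold on that scale, among 11103 genes with a mean of at least 1 FPKM. Of the members, 49 passed this filter. The 9 others were ACTG2, ACTC1, TAGLN, CNN1, CALD1, CORO2B, ROCK1, ROCK2 and MKL2. Count ratios are scaled by the library totals and carry a 95% exact binomial interval, which covers counting error only. In bulk RNA, fewer cells with a transcript and less of it per cell cannot be told apart.

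Of the 49 members, 1 was called lower with IRF3 siRNA (CORO1C) and 1 with YAP siRNA (ACTR2), beside 0.612% and 0.468% of all genes kept. No member was called higher in either knockdown, where 0.387% and 0.351% of all genes were. With shares this small, the absence of a call in a short list says little of that list. This holds for each role and list below. In the direct comparison of IRF3 siRNA with YAP siRNA no member passed, beside 0.297% of genes called higher and 0.315% called lower. The median ratio of the members was 0.02 with IRF3 siRNA and 0.06 with YAP siRNA, beside -0.03 and -0.02 over all genes kept. With IRF3 siRNA 25 members were above 0 and 24 below, where 46.1% of all genes kept were above 0. With YAP siRNA 32 members were above 0 and 17 below, where 46.5% of all genes were above. At 1.5-fold, ACTB and TPM4 were higher with IRF3 siRNA and TPM4 with YAP siRNA, beside 1.59% of genes in each. At that threshold 5 members were lower with IRF3 siRNA (CAPZA1, CORO1C, MYH10, TAGLN2 and TPM3), beside 5.88% of genes, and 2 with YAP siRNA (ACTR2 and MYH10), beside 4.64%. Directly compared, 2 were lower at 1.5-fold with IRF3 siRNA than with YAP siRNA (CORO1C and TAGLN2), beside 1.28% of genes, and none was higher, beside 1.18%. The 58 genes took 1.76% of all counts with IRF3 siRNA (counting interval 1.75 to 1.77), 1.69% with YAP siRNA (1.68 to 1.70) and 1.58% in the control (1.57 to 1.58). That sum is weighted to the most abundant members. ACTB alone held 41868 of 262733 member counts with IRF3 siRNA and 35346 of 243352 with YAP siRNA, against 25244 of 219877 in the control.

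**Figure D1:**
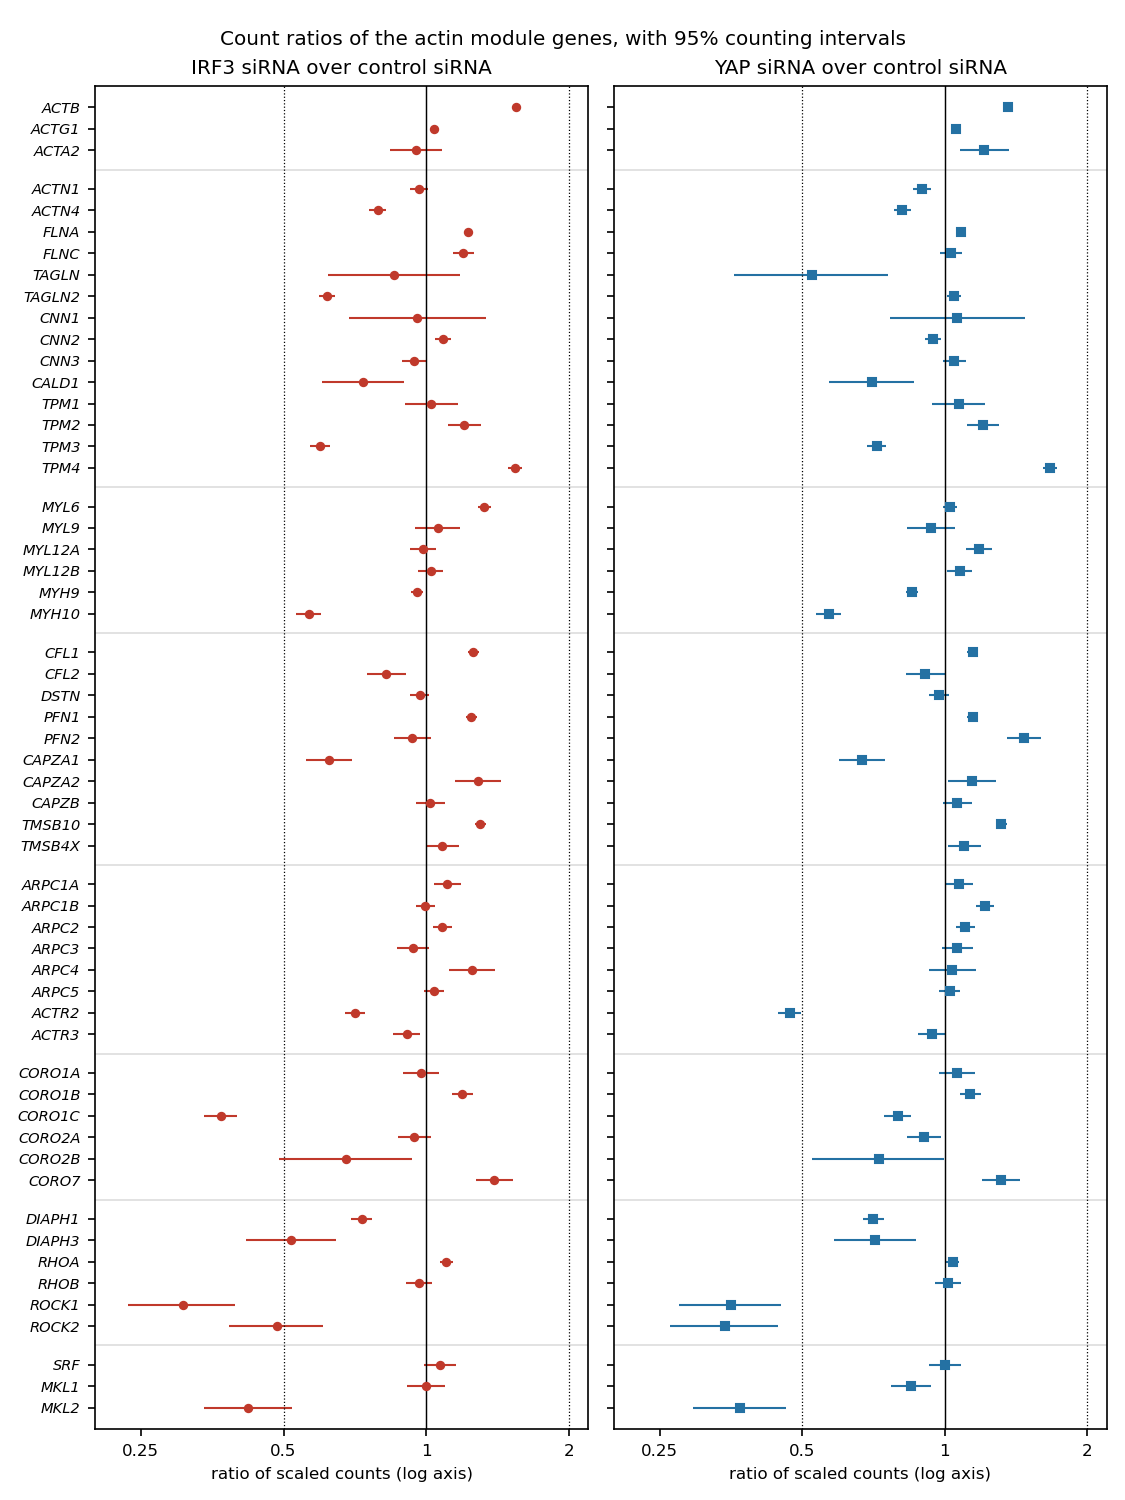
Ratio of scaled counts over control (log axis) for the 56 members with at least 100 counts over the 3 libraries, IRF3 siRNA on the left and YAP siRNA on the right; points are single libraries, bars are 95% counting intervals, and dotted lines mark 0.5 and 2. ROCK1, ROCK2, MKL2 and CORO1C lie furthest to the left with IRF3 siRNA, and ROCK1, ROCK2, MKL2 and ACTR2 with YAP siRNA.

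Of SRF and its coactivators, MKL2 stood furthest from the control. SRF (ENSG00000112658, chromosome 6, 43171299 to 43181507, hg38) had 1390 counts with IRF3 siRNA and 1250 with YAP siRNA, against 1211 in the control. The counting intervals of its ratio to control, 0.991 to 1.16 and 0.924 to 1.08, both held 1. MKL1 stood at 4.18 FPKM with IRF3 siRNA and 3.55 with YAP siRNA, against 4.18 in the control, with a count ratio of 0.849 (0.771 to 0.935) for YAP siRNA. MKL2 was lower in both knockdowns on the count scale, with 129 counts with IRF3 siRNA and 109 with YAP siRNA, against 286 in the control. Those are count ratios of 0.421 (0.339 to 0.520) and 0.370 (0.294 to 0.462), on a gene whose mean of less than 1 FPKM kept it out of the calls.

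To show which members carry the SRF motif, the CArG box was searched in the 300 bases around each start of transcription, 250 before and 50 after, in RefSeq promoters of build GRCh38.p14. The motif reads the same on both strands. It was present at 454 of 35116 starts (1.29%) over all genes and at 9 of 93 starts of the 53 members that matched the table. ACTB, TAGLN, MYL9, PFN2 and ARPC1B were not matched. Many of the members were picked as known SRF targets, so their share is no independent result. The windows of 30 bases that hold it follow, each read 5′ to 3′ on the gene's strand with the CArG box in capitals.
ACTG1, chr17:81512874-81512903, minus strand: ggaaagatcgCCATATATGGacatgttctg
TPM4, chr19:16067355-16067384, plus strand: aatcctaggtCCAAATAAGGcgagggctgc
FLNA, chrX:154374709-154374738, minus strand: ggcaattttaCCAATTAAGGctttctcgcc
CNN2, chr19:1026509-1026538, plus strand: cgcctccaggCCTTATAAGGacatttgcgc
ACTN1, chr14:68977718-68977747, minus strand: acgctcatgtCCAAAAATGGtaacattcat
SRF, chr6:43171229-43171258, plus strand: ctggggctcaCCATATAAGGagcggcctcg
SRF, chr6:43171249-43171278, plus strand: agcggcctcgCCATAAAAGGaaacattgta
ROCK2, chr2:11345491-11345520, minus strand: aaatgtacttCCTTAAATGGgtttactggg
ACTC1, chr15:34795639-34795668, minus strand: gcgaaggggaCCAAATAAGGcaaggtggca
ACTG2, chr2:73892888-73892917, plus strand: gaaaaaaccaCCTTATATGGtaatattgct
ACTG2, chr2:73892925-73892954, plus strand: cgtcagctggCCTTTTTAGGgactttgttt

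The members with the box lay on both sides of the control. Their ratios to control, with IRF3 siRNA and then YAP siRNA, were 0.61 and 0.72 for TPM4, 0.29 and 0.11 for FLNA, 0.05 and 0.08 for ACTG1, 0.12 and -0.08 for CNN2, 0.10 and 0.0012 for SRF itself, and -0.05 and -0.15 for ACTN1. ROCK2 had count ratios of 0.483 and 0.343, and ACTG2 and ACTC1 were at or near 0 counts. The 6-letter TEAD motif GGAATG, through which YAP acts, or its complement CATTCC was found at 15 of the 93 member starts (16.1%) and at 4928 of all 35116 starts. A start without these letters says nothing of the factor elsewhere.

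Other genes that SRF is known to drive were read from a separate list. Of 15 such targets, among them vinculin and zyxin, 10 were kept and none passed 2-fold in either knockdown. Of all genes kept, 0.387% and 0.351% were called higher with IRF3 siRNA and YAP siRNA, and 0.612% and 0.468% lower. The median of the 10 targets was 0.08 with IRF3 siRNA and -0.05 with YAP siRNA, beside -0.03 and -0.02 over all genes kept. VCL, which ties actin to adhesions, had 4349 counts with IRF3 siRNA and 4287 with YAP siRNA, against 6542 in the control (ratios -0.66 and -0.63), and PDLIM5 had ratios of -0.21 and -0.29. Of 7 immediate early SRF targets 4 were kept, and IER2 alone was called, with 653 counts in the IRF3 siRNA library and 2222 in the YAP siRNA library, against 617 in the control. The ratio of IER2 to control was -0.02 with IRF3 siRNA but 1.67 with YAP siRNA, and the direct ratio of IRF3 siRNA to YAP siRNA was -1.68. EGR1, on the same list, had 79 and 48 counts, against 95 in the control.

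The GTPases were close to the control, and the kinases were lower. RHOA, the GTPase that starts stress fibre assembly, was the most abundant of them on exon sequence too, at 134 deposited FPKM with IRF3 siRNA and 126 with YAP siRNA, against 121 in the control. RHOB, a related GTPase of endosomes, stood at 55.5 and 58.3 FPKM, against 57.5 in the control. Neither departed by more than 0.14 on the log2 scale. The kinases downstream were lower: ROCK1 had 81 counts with IRF3 siRNA and 90 with YAP siRNA, against 247 in the control, and ROCK2 had 117 and 80 counts, against 226 in the control. The count ratios of ROCK1 were 0.306 (0.235 to 0.395) and 0.353 (0.274 to 0.451), and those of ROCK2 were 0.483 (0.383 to 0.607) and 0.343 (0.263 to 0.445). For both kinases the control library was above each knockdown library beyond counting error.

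ROCK1, ROCK2 and MKL2 are long, low transcripts under the 1 FPKM filter, and long genes were lower in general. On scaled counts without a pseudocount, among 13021 genes with at least 100 counts over the 3 libraries, 4 of 56 members were 2-fold lower with IRF3 siRNA (CORO1C and these 3) and 4 with YAP siRNA (ACTR2 and these 3), beside 5.65% and 4.87% of all such genes. No member was 2-fold higher on that scale, beside 0.507% and 0.484%. Among the 1301 genes with the longest exon sequence, at least 10496 bases, the median log2 count ratio was -0.53 with IRF3 siRNA, where 21.3% of them were 2-fold lower. With YAP siRNA it was -0.46, and 17.3% were 2-fold lower. ROCK1, with 11113 bases, and MKL2, with 16578, belong to that group, and ROCK2, with 10145, lies just under it. Whether length has a part in the lower counts of ROCK1, ROCK2 and MKL2 was not tested. ROCK1P1, a partial copy of ROCK1 counted as a gene of its own, had 16 and 21 counts, against 19 in the control.

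The formins DIAPH1 and DIAPH3, which extend unbranched filaments, were on the lower side too. DIAPH1 had 2625 counts with IRF3 siRNA and 2442 with YAP siRNA, against 3351 in the control, ratios of -0.42 and -0.47. DIAPH3 had 133 and 176 counts, against 239, ratios of -0.56 and -0.31. None of these passed 2-fold.

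**Figure D2:**
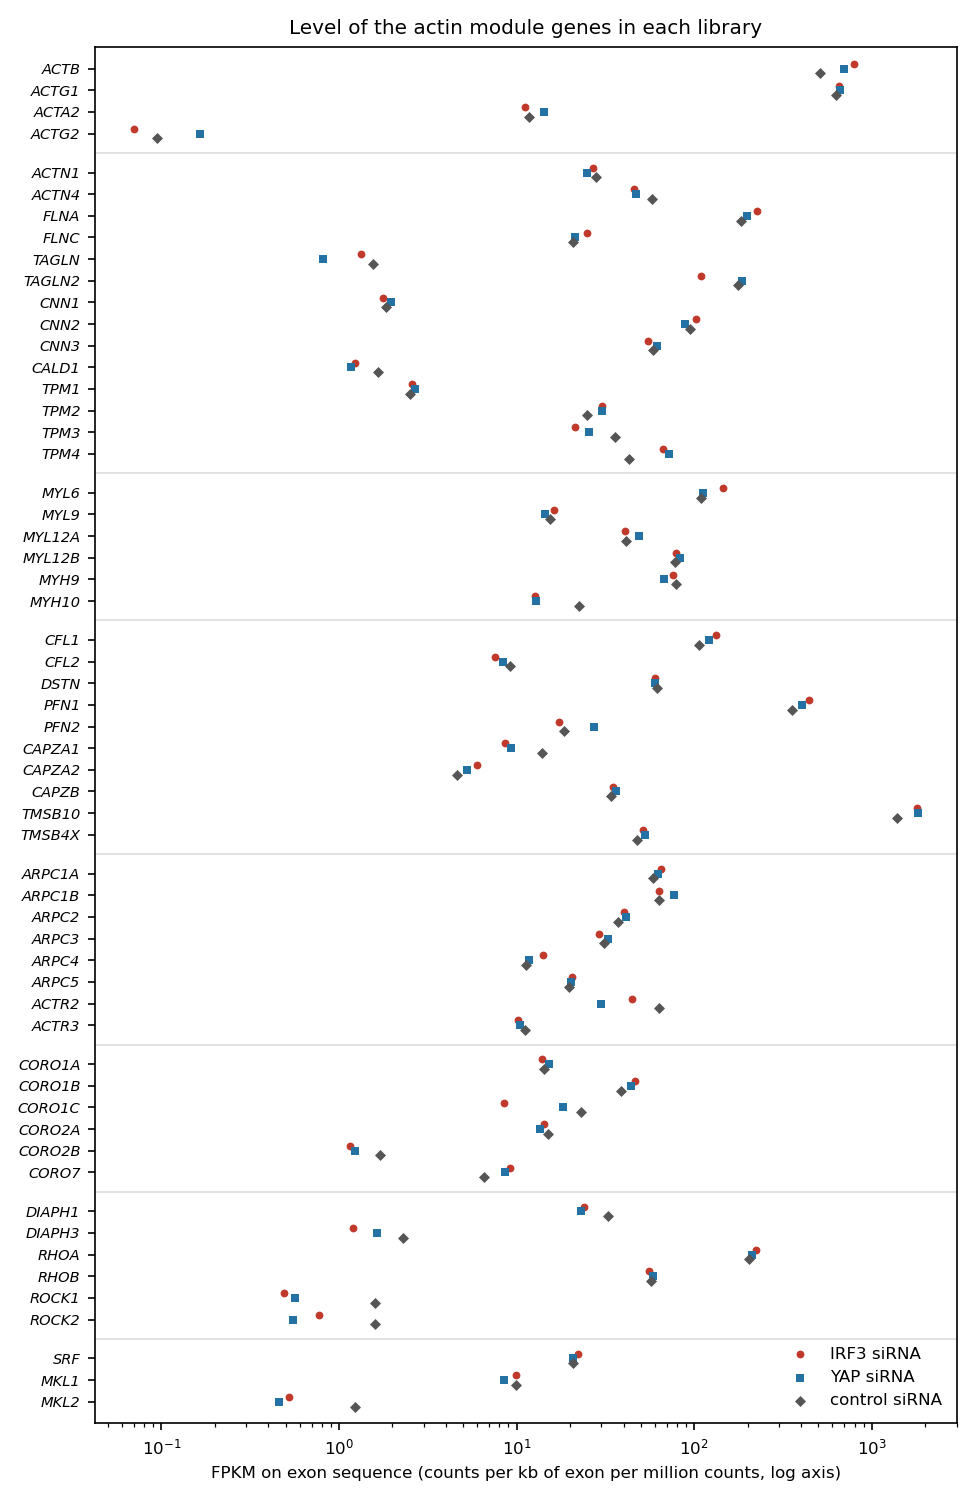
Level of the 57 members with counts in each library, as FPKM on exon sequence (log axis), grouped by role from the actins at the top to SRF and its coactivators at the bottom. TMSB10 is highest, at 1796, 1817 and 1381 in the order IRF3 siRNA, YAP siRNA and control, and ACTG2 is lowest, and ROCK1, ROCK2 and MKL2 lie under 1 in both knockdowns and above 1 in the control.

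Levels are compared between genes on exon sequence of GENCODE 29, because the length behind the deposited FPKM is not that of the mRNA. It was computed from each gene's count and FPKM, and over the members with counts it was 1.60 times the exon sequence in the median and up to 4.73 times, for ACTG1. In 6 of 57 members it was longer than the whole locus. Which length was used is not stated in the labels. One fixed length per gene leaves count ratios between libraries as they are, and enters the FPKM ratios through the pseudocount and the filter. On exon sequence 53 members reached a mean of 1. On that scale 1 was 2-fold lower with IRF3 siRNA and in the direct comparison (CORO1C) and 1 with YAP siRNA (ACTR2), beside 0.73%, 0.324% and 0.622% of all genes. None was 2-fold higher, where the share of all genes was 0.415% with IRF3 siRNA, 0.382% with YAP siRNA, and 0.34% when both were compared directly.

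Among the actins, ACTB and ACTG1, the cytoplasmic isoforms, made up nearly all of the message. ACTB (ENSG00000075624, chromosome 7, 5527151 to 5563784) had 317 FPKM with IRF3 siRNA and 278 with YAP siRNA, against 205 in the control. Its count ratios were 1.55 (1.52 to 1.57) and 1.36 (1.34 to 1.38), both short of 2-fold. Its 10 pseudogene copies in the table held 64 and 54 counts, against 47 in the control, which is 0.153% and 0.153% of the counts of ACTB and its copies together, against 0.186%. ACTG1 had 139 and 141 FPKM, against 133 in the control. ACTB took 54.9% of the sum of both genes on exon sequence with IRF3 siRNA and 51.2% with YAP siRNA, against 44.9% in the control. On exon sequence ACTG1 was the more abundant of the pair in the control, and ACTB in both knockdowns. That order depends on the length used. On the deposited FPKM, ACTB was above ACTG1 in all 3 libraries, and the control held 25244 counts of ACTB and 26330 of ACTG1. The deposited coordinates of ACTB are not those of GENCODE 29. ACTA2, an actin of smooth muscle and activated fibroblasts, had 498 counts with IRF3 siRNA and 610 with YAP siRNA, against 488 in the control. It overlaps exons of FAS and of its own antisense gene, and whether strand was used in counting is not stated in the labels. ACTG2, the enteric smooth muscle actin, had 4, 9 and 5 counts, and cardiac ACTC1 had 0 in all 3 libraries, which allows at most 0.201, 0.209 and 0.215 CPM in the order IRF3 siRNA, YAP siRNA and control.

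The tropomyosins, which coat filaments and decide which other proteins reach them, differed among themselves. TPM4 had 8566 counts with IRF3 siRNA and 8950 with YAP siRNA, against 5196 in the control. Its ratios of 0.61 and 0.72 were the highest of any member with YAP siRNA and the next after ACTB with IRF3 siRNA. TPM3 was lower, with 7.44 and 8.97 FPKM, against 12.5 in the control, ratios of -0.68 and -0.44. TPM2 had 14.8 FPKM in each knockdown, against 12.3 in the control, and TPM1 had between 1.30 and 1.39 in all 3 libraries. On exon sequence TPM4 made up 55.1% of the tropomyosin message with IRF3 siRNA and 55.2% with YAP siRNA, against 40.5% in the control, and TPM3 made up 17.7% and 19.7%, against 33.6%.

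**Figure D3:**
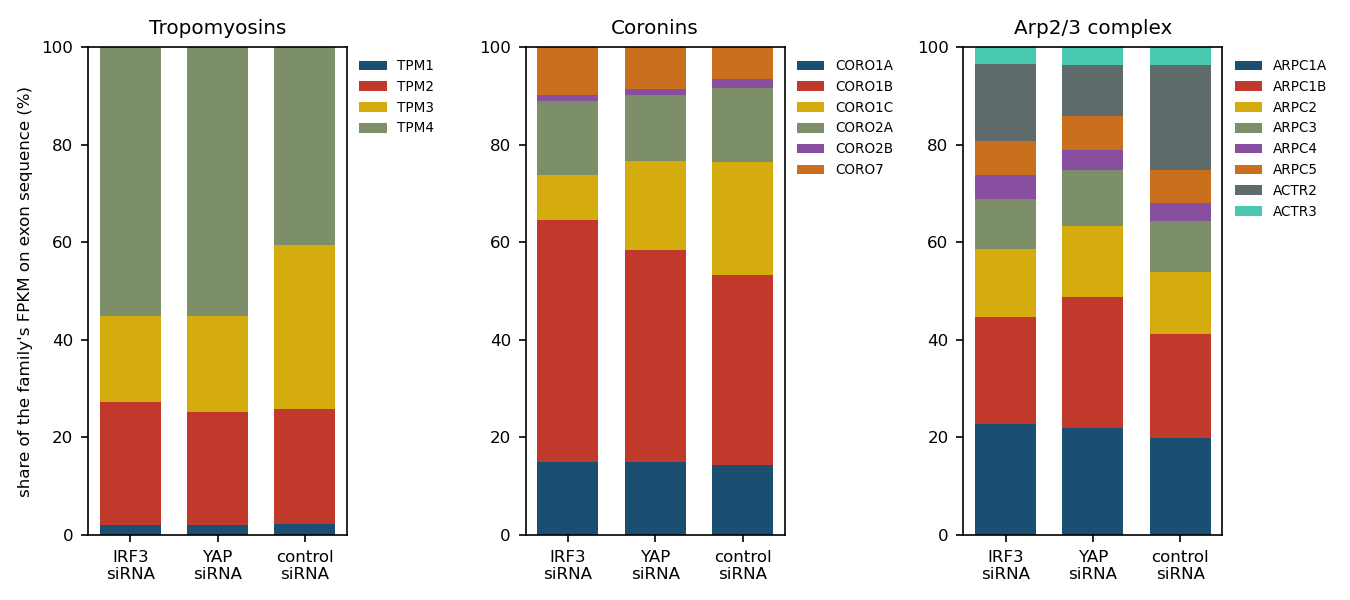
Share of each gene in the summed level of its family on exon sequence (%), for the tropomyosins, the coronins and the Arp2/3 complex, with 1 bar per library. TPM4 takes 55.1% and 55.2% of the tropomyosin bar in the knockdowns against 40.5% in the control, CORO1C takes 9.12% of the coronin bar with IRF3 siRNA against 23.2% in the control, and ACTR2 takes 10.5% of the Arp2/3 bar with YAP siRNA against 21.5% in the control.

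Of the cross-linkers and filament-binding calponin family, TAGLN2 separated the knockdowns. TAGLN2 (ENSG00000158710, chromosome 1, 159918107 to 159925732), a small actin bundler, had 4070 counts with IRF3 siRNA and 6630 with YAP siRNA, against 6148 in the control. Its ratio to control was -0.69 with IRF3 siRNA but 0.06 with YAP siRNA. The direct ratio of IRF3 siRNA to YAP siRNA was -0.75, a count ratio of 0.591 (0.568 to 0.615). The smooth muscle relative TAGLN had 78 and 46 counts, against 85 in the control, and calponin CNN1 had between 74 and 81. CNN2 and CNN3, the calponins of non-muscle cells, stood within 0.12 of control on the log2 scale. FLNA, the main filamin, had 129 FPKM with IRF3 siRNA and 114 with YAP siRNA, against 105 in the control, and its muscle relative FLNC had 20.9 and 18.0, against 17.5. ACTN4, a non-muscle actinin, was lower at 33.0 and 33.9 FPKM, against 41.7 in the control, while ACTN1 stood at 18.1 and 16.7, against 18.7. Caldesmon, CALD1, had 180 and 165 counts, against 228 in the control.

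Non-muscle myosin II is made of heavy chains, here MYH9 and MYH10, with essential and regulatory light chains. MYH10 (ENSG00000133026, chromosome 17, 8474205 to 8630761) had 1714 counts with IRF3 siRNA and 1659 with YAP siRNA, against 2830 in the control. Its ratios were -0.75 and -0.74, short of 2-fold, and they became -0.54 and -0.57 once the trend in level, exon length and GC content was removed. MYH9 stood at 60.7 and 54.2 FPKM, against 63.5 in the control. MYH10 accordingly made up 14.4% and 15.9% of the heavy chain message on exon sequence, against 22.2% in the control. The essential light chain MYL6 was higher with IRF3 siRNA, at 71.1 FPKM, than with YAP siRNA at 55.0 or the control at 53.6; it overlaps exons of SMARCC2 and MYL6B, and with their counts summed its ratio to control moved to 0.26 with IRF3 siRNA, beside 0.40 alone. The regulatory light chains MYL9, MYL12A and MYL12B had ratios between -0.02 and 0.07 with IRF3 siRNA and between -0.09 and 0.23 with YAP siRNA. Among 10 other myosins 7 were kept and none was called, beside between 0.351% and 0.612% of all genes kept per knockdown and direction. MYO10, the myosin of filopodia tips, had 15.1 and 15.5 FPKM, against 28.1 in the control (ratios -0.86 and -0.82).

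Among the genes that bind monomers and turn filaments over, 6 of 10 members were above control with IRF3 siRNA and 7 of 10 with YAP siRNA. None was called. Over all genes kept, 46.1% and 46.5% were above control, and between 0.351% and 0.612% were called per knockdown and direction. TMSB10, a short peptide that sequesters actin monomers, was the most abundant member at 1796 FPKM with IRF3 siRNA and 1817 with YAP siRNA, against 1381 in the control. Its relative TMSB4X stood at 30.3 and 30.9 FPKM, against 28.1. Profilin PFN1 had 291 and 268 FPKM, against 234 in the control, and cofilin CFL1 had 67.8 and 61.7, against 53.9. For TMSB10 the ratios of 0.38 and 0.40 became 0.16 and 0.18 once the trend in level, exon length and GC content was removed, and for PFN1 the ratios of 0.32 and 0.20 became 0.06 and -0.02. PFN2, a profilin most studied in neurons, differed between the knockdowns, with 954 counts with IRF3 siRNA and 1447 with YAP siRNA, against 953 in the control. Its direct ratio of IRF3 siRNA to YAP siRNA was -0.56. Of the other disassembly factors, DSTN had 41.9 FPKM with IRF3 siRNA and 42.0 with YAP siRNA, against 43.3 in the control. CFL2 had 4.40 and 4.85 FPKM, against 5.34, with a count ratio of 0.824 (0.749 to 0.907) for IRF3 siRNA.

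Capping protein closes the fast-growing filament end as a dimer of an alpha chain and CAPZB. CAPZA1 had 533 counts with IRF3 siRNA and 550 with YAP siRNA, against 797 in the control, ratios of -0.61 and -0.52. The other alpha chain, CAPZA2, had 751 and 641 counts, against 545, ratios of 0.30 and 0.15. CAPZB had ratios of 0.03 and 0.08. CAPZA1 shares exon sequence with ST7L, and with both summed its ratios were -0.50 and -0.44.

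The Arp2/3 complex, which starts branches on existing filaments, has 1 subunit that stood apart. ACTR2 (ENSG00000138071, chromosome 2, 65227753 to 65271253), which encodes Arp2, had 2909 counts with IRF3 siRNA and 1868 with YAP siRNA, against 3844 in the control. The control was highest and YAP siRNA lowest, with count ratios to control of 0.707 (0.673 to 0.742) with IRF3 siRNA and 0.471 (0.446 to 0.498) with YAP siRNA. Its log2 ratio of -1.05 with YAP siRNA just passed the 2-fold rule, and it became -0.99 with the trend in level, exon length and GC content removed and -0.99 on TMM-scaled CPM, so ACTR2 was not called under those settings. ACTR3, which encodes its partner Arp3, had 1828 and 1817 counts, against 1876 in the control. The 6 other subunits had ratios between -0.09 and 0.29 with IRF3 siRNA and between 0.03 and 0.27 with YAP siRNA; the highest were ARPC4 (0.29, or 0.15 with the overlapping genes TADA3 and ARPC4-TTLL3 summed) with IRF3 siRNA and ARPC1B (0.27) with YAP siRNA. The summed level of the complex on exon sequence was 287 with IRF3 siRNA and 286 with YAP siRNA, against 295 in the control. Upstream, 19 of 22 nucleation factors of the WASP, WAVE, Ena/VASP and formin groups were kept. None was called, beside between 0.351% and 0.612% of all genes kept per knockdown and direction. The medians of these 19 were -0.13 and -0.20, beside -0.03 and -0.02 over all genes kept. WASL, the ubiquitous WASP, had ratios of -0.74 and -0.50, and WASF1 had -0.64 and -0.36.

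Coronins are WD-repeat proteins that bind filaments and work with Arp2/3 and cofilin. CORO1C (ENSG00000110880, chromosome 12, 108645109 to 108731596) had 829 counts with IRF3 siRNA and 1722 with YAP siRNA, against 2101 in the control, or 4.27 and 9.22 FPKM, against 11.6. The IRF3 siRNA library was far below both others. Its ratio to control was -1.26 with IRF3 siRNA, a count ratio of 0.368 (0.340 to 0.399), and -0.30 with YAP siRNA, a count ratio of 0.795 (0.745 to 0.847). Compared directly, IRF3 siRNA over YAP siRNA gave a log2 ratio of -0.95, or 0.464 on counts (0.426 to 0.504), short of 2-fold with the pseudocount and past it without, where 0.676% of all genes were 2-fold lower. With the trend in level, exon length and GC content removed the ratio to control in the IRF3 siRNA library was -1.06, still past 2-fold.

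No other coronin that was kept was called, beside between 0.351% and 0.612% of all genes kept per knockdown and direction. CORO1B, the most abundant, stood at 29.9 FPKM with IRF3 siRNA and 28.4 with YAP siRNA, against 25.1 in the control. CORO1A, best known from leukocytes, stood at 6.28 and 6.83 FPKM, against 6.44, in cells where the leukocyte marker PTPRC was near 0. CORO2A had 14.2 and 13.6 FPKM, against 15.1, and CORO2B had 69 and 71 counts, against 95 in the control, count ratios of 0.678 (0.490 to 0.934) and 0.725 (0.525 to 0.996). CORO7, a coronin of the Golgi, had 1203 and 1094 counts, against 807, ratios of 0.38 and 0.31 that became 0.28 and 0.18 with the readthrough gene CORO7-PAM16 summed. Among CORO1A, CORO1B and CORO1C, the share of CORO1C on exon sequence was 12.4% with IRF3 siRNA and 23.7% with YAP siRNA, against 30.3% in the control, and the share of CORO1B was 67.3% and 56.7%, against 50.9%.

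The last list held 24 other actin-binding proteins, of which 20 were kept. None was called, beside between 0.351% and 0.612% of all genes kept per knockdown and direction. The medians of those 20 were -0.17 with IRF3 siRNA and -0.16 with YAP siRNA. Of the 20, 16 and 15 were below 0, where 53.9% and 53.4% of all genes kept were below 0. The plastin PLS1 had ratios of -0.59 and -0.39, and radixin, RDX, which links actin to the membrane, had -0.31 and -0.54. Over all 93 other genes listed, 72 were kept, and 46 were below 0 with IRF3 siRNA and 50 with YAP siRNA.

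**Figure D4:**
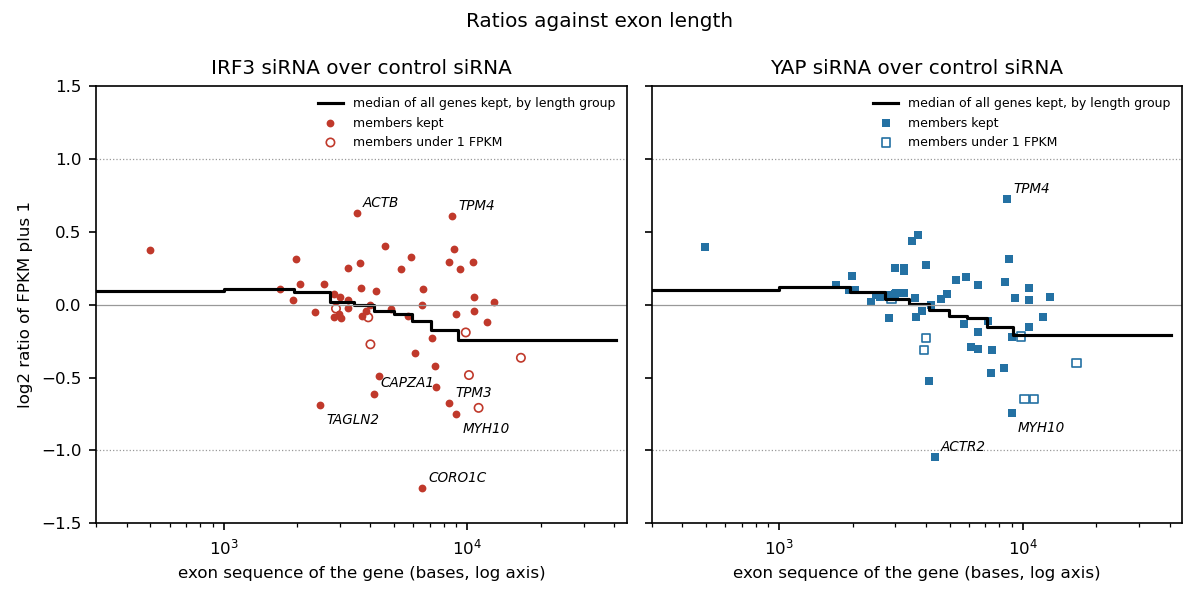
Log2 ratio of FPKM plus 1 over control against exon sequence of the gene (bases, log axis), IRF3 siRNA on the left and YAP siRNA on the right; filled points are members kept, open points members under 1 FPKM, and the black line is the median of all genes kept in 10 groups of equal size by length. The line runs to -0.24 and -0.21 in the longest group, and the members called, CORO1C with IRF3 siRNA and ACTR2 with YAP siRNA, lie below the lower dotted line at -1.

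Exon length moved with the ratios of all genes. In the longest of 10 groups, 9130 bases or more, the median ratio of all genes was -0.24 with IRF3 siRNA and -0.21 with YAP siRNA. The 6 members in that group (ACTN1, ACTR3, ARPC5, FLNA, FLNC and TPM1) had a median of 0.04 in each knockdown. In the group from 7098 to 9129 bases, which holds 9 members, the medians were -0.17 and -0.15 for all genes and -0.23 and -0.22 for the members, TPM3, MYH10 and DIAPH1 among them. A trend in level and in the length behind the deposited FPKM, rather than exon length, was also removed. The ratio of CORO1C with IRF3 siRNA was then -1.17 and that of ACTR2 with YAP siRNA was -1.09. Those of MYH10 were -0.67 and -0.66.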

How the data were processed

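The authors deposited 1 table that gives 50868 genes an FPKM value and a raw count in each library, per the file headers. The submitters' processing notes name TopHat2 version 2.0.9 and build hg38. The counter, its strand setting and the annotation release are not stated there. The deposited FPKM values equal the deposited counts scaled by 1 fixed length per gene and by the column total, within 1%, for 100% of 45223 values checked.

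FPKM stayed the unit of the calls, as planned: a pseudocount of 1, a mean of at least 1 FPKM, and 2-fold. Exact (Clopper-Pearson) binomial intervals of 95% were put on count ratios; PCR copies are not independent molecules, so they cover counting error only. Exon sequence, exon overlap and GC content came from GENCODE release 29, where 50 of the 58 members have identical coordinates. Promoters came from RefSeq.

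Results that need items withheld for evaluation are not reported here. The members and lists were chosen with earlier results of these data known. Named with their values were members past 2-fold, the most abundant and the extreme members of each role, 9 members fixed by name, and up to 2 genes per other list. Alternatives were no filter or one at 5 FPKM, a smaller pseudocount (0.1), TMM-scaled CPM, median centring, 1.5-fold, removal of a spline trend (4 degrees of freedom per term) in level and length, and sums over overlapping genes. The length in that trend was the one behind the deposited FPKM. Added after seeing the data were scaled counts without a pseudocount, FPKM on exon sequence, and a trend in level, exon length and GC content. The calling rule was run on counts simulated from the control library alone, a check of the code that holds no variation between cultures. TMM factors came from edgeR 4.0.16 in R 4.3.3, and the rest from Python 3.11.15 with pandas 2.3.3, scipy 1.17.1, numpy 2.4.6, matplotlib 3.10.9 and patsy 1.0.2.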

Additional observations from a re-analysis of the deposited data

How the results depend on the processing

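With 1 library per group, the values below say how far choices of processing move these libraries, and nothing of variation between cultures. No paired analysis was possible because each group has 1 sample and no test was run. On TMM-scaled CPM, members called lower numbered 3 under IRF3 siRNA (CORO1C, MKL2, ROCK1), 3 under YAP siRNA (MKL2, ROCK1, ROCK2) and 1 between the knockdowns (CORO1C), beside 2.83%, 2.37% and 0.42% of all genes. On scaled counts without a pseudocount these numbers were 4, 4 and 1, beside 5.65%, 4.87% and 0.676%. At 1.5-fold they numbered 5 (CAPZA1, CORO1C, MYH10, TAGLN2, TPM3), 2 (ACTR2, MYH10) and 2 (CORO1C, TAGLN2), beside 5.88%, 4.64% and 1.28% of all genes, and 2 (ACTB, TPM4) and 1 (TPM4) were higher in the knockdowns, beside 1.59% in each. The direct comparison also had 1 (CORO1C) with a pseudocount of 0.1, beside 0.712% of all genes, and with FPKM on exon sequence, beside 0.324%. Once the GC, length and level trend was removed, YAP siRNA had 0 called lower, beside 0.307%.

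The members' median of 0.06 with YAP siRNA kept its sign but was 0.14 on TMM-scaled CPM, and 0.021 or 0.020 without the level and length trend or the one with GC. The other medians, close to 0, changed sign. With IRF3 siRNA the members' median was -0.022 with no filter, -0.028 on scaled counts and -0.0050 on exon sequence. In the direct comparison it was 0.0057 on TMM-scaled CPM, 0.0002 with centring and 0.0095 without the GC, length and level trend. The TMM factors alone raise a ratio to control by 0.10 with IRF3 siRNA and 0.09 with YAP siRNA. In that setting CPM plus 1 also replaced FPKM plus 1, so single ratios moved either way. With IRF3 siRNA that of ACTB went from 0.63 to 0.73 and that of ROCK1 from -0.71 to -1.45. Under at least 1 setting, 23 of 56 members changed sign with IRF3 siRNA and 13 with YAP siRNA, none of them with a ratio of over 0.23 in size. For single members, a move was judged against the distance from the middle of the log2 counting interval to its end. Under the alternatives 1356 ratios moved by less and 171 by at least that much. The causes were not tested.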
